A study of Homo sapiens with 8 samples.

Results

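NCI-H2009 is an established human lung adenocarcinoma cell line, and the question taken up here is how its RNA differed between cells that carried dCas9-KRAB together with a non-targeting guide RNA, one that matches no human sequence, and cells that carried dCas9-KRAB alone. dCas9-KRAB is a fusion of a cutting-deficient Cas9 with the KRAB repressor domain, and the cells of every library of the study had been transfected with it first. Of the 8 libraries of the study 4 were compared, 2 without a guide (labelled Empty) and 2 with the non-targeting guide (labelled Control, and named Dummy in the design text), and the 4 libraries with guides to the enhancer e3 stayed out of the comparison. A gene was tested where its level, averaged over these 4 libraries, reached 1 RPKM (a read count divided by gene length and sequencing depth). This held for 13997 of the 52576 genes in the table. The cells were grown in RPMI medium with serum, and poly(A) RNA was sequenced. The labels give neither the sequence of the guide, nor the time between transfection and harvest, nor whether a group's libraries stem from separate cultures. The presence of a guide, the delivery of that guide and any difference in culture history therefore cannot be told apart, and p-values measure only how far these libraries spread, which can be technical.

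A non-targeting guide serves as the control for guide delivery and for the loading of dCas9-KRAB with RNA, and cells without a guide serve as the control for the fusion protein alone. Many of the genes described below belong to the response of epithelial cells to NF-kB. In resting cells inhibitor proteins such as the product of NFKBIA hold the NF-kB dimers in the cytoplasm. When kinases remove the inhibitors, the dimers enter the nucleus and raise chemokines, acute-phase proteins, survival genes and their own inhibitors, which closes a feedback loop. NKX2-1 is the lineage factor of the distal lung, and KRT7, KRT8, KRT18 and KRT19 are keratins of simple epithelium.

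The libraries held 4693343 and 4220240 reads without a guide and 4670714 and 4757909 reads with the non-targeting guide, as inferred from the steps between low RPKM values. At 1 RPKM a gene of median length (3.07 kb) held 13 to 14.6 reads. Markers of simple epithelium were strong in all 4 libraries, with a summed level over 11 genes of 3823 and 3938 RPKM (no guide) and of 3006 and 3169 RPKM (non-targeting guide). Of these 11 genes 6 fell and none rose. Of the 10 markers of alveolar and lung adenocarcinoma cells, NKX2-1 and LPCAT1 reached a mean of 1 RPKM. SFTPA1, SFTPA2, SFTPC and SFTPD, the surfactant genes of alveolar type II cells, were listed at 0 in all 4 libraries. Leukocyte-defining PTPRC, CD3D, CD3E, CD2, MS4A1, FCGR3A and SPI1 were listed at 0 in all 4 libraries as well. The summed level of the 15 leukocyte markers was 52.6 and 48.7 RPKM (no guide) and 64.6 and 63.1 RPKM (non-targeting guide), and it came almost wholly from CD79A (26.1 and 25.8 against 14 and 13 RPKM), CD68 (13.7 and 12.2 against 23.7 and 21.6 RPKM) and LCP1 (11.1 and 9.64 against 25.1 and 26.2 RPKM). Fibroblast markers summed to 3.43 and 4.68 against 5.76 and 5.16 RPKM, nearly all of it COL1A1, and 6 of the 11 were at 0 throughout. Endothelial markers summed to 2.27 and 1.13 against 1.97 and 1.22 RPKM. Among the neuroendocrine markers ENO2 alone, which is also a glycolytic enzyme gene, was above 1 RPKM. The part of other cells in the results below was not tested.

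Between the non-targeting guide and no guide 1270 of the 13997 genes tested (9.07%) were called at an adjusted p under 0.05 (limma on log2(RPKM + 1), Benjamini-Hochberg adjustment). Of these 684 (4.89%) were higher and 586 (4.19%) were lower with the non-targeting guide, and 337 (2.41%) differed by at least 1 on the log2 scale, 171 upward (1.22%) and 166 downward (1.19%). The plot of change against level shows PDZK1IP1, CSF2 and SAA1 at the upper end and KRT4, PCDH19 and KRT13 at the lower end. In such bulk libraries fewer cells that express a gene and less of its RNA per cell cannot be told apart. The median change over all genes tested was -0.01. The 2 libraries of a group differed by a median of 0.15 (no guide) and 0.14 (non-targeting guide) in size on the same scale, against 0.20 between the group means. In all 1270 called genes both libraries of one group lay above both of the other, which held for 56.5% of the genes tested. Where groups lie apart in this way, leaving out 1 library cannot turn the sign of the change. With 1 library left out and 1 residual degree of freedom, 156 and 128 genes were called without the first and the second no-guide library and 215 and 213 without the first and the second non-targeting library. Every one of the 1270 changes kept its sign in those 4 fits, and 107 kept their call in each of them, 74 higher and 33 lower. Without a trend of the variance with level 310 genes were called.

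**Figure D1:**
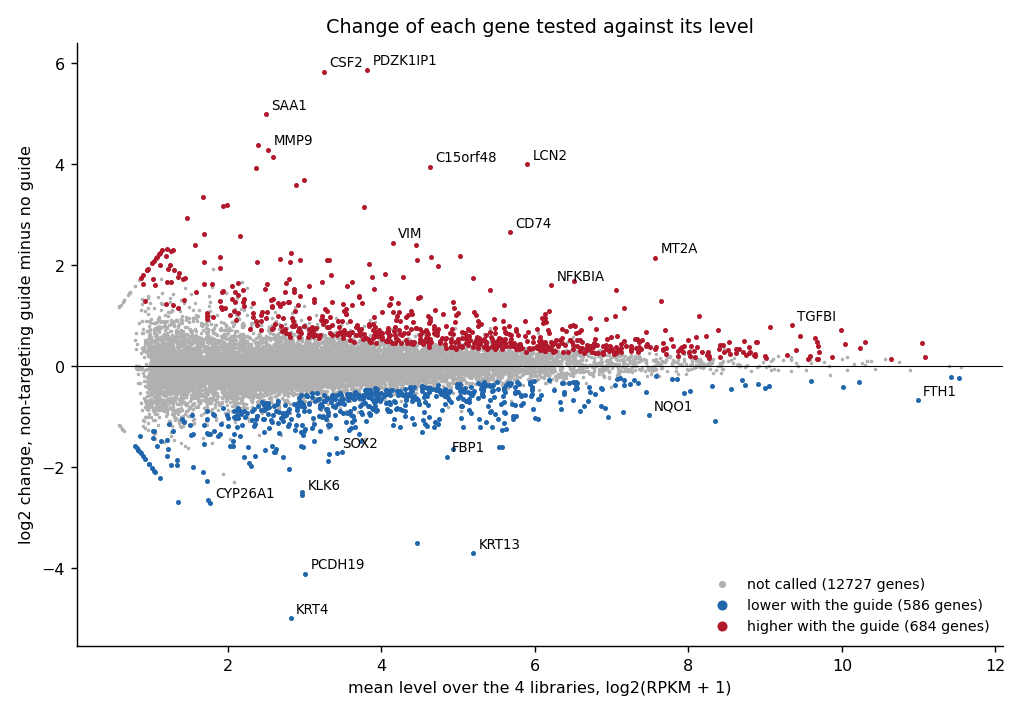
Each point is 1 of the 13997 genes tested; the horizontal axis gives its mean level over the 4 libraries as log2(RPKM + 1) and the vertical axis the log2 change, non-targeting guide minus no guide. The 684 genes called higher reach 5.86 (PDZK1IP1) and the 586 called lower reach -5.00 (KRT4), while most genes lie near 0.

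The largest rise was that of PDZK1IP1 (ENSG00000162366.3, chromosome 1), which encodes a small membrane protein of epithelia. Its level was 0.593 and 1.15 RPKM (no guide) and 117 and 96.8 RPKM (non-targeting guide) (log2 change 5.86 ± 0.18, adjusted p = 0.000258), so it was close to the limit of detection in one group and abundant in the other. CSF2, which encodes the growth factor GM-CSF for myeloid cells, stood at 0 and 0.605 RPKM (no guide) and 80.4 and 62.3 RPKM (non-targeting guide) (log2 change 5.82 ± 0.25, adjusted p = 0.000479). The antimicrobial iron-binding protein gene LCN2 was already expressed without a guide and was higher in both libraries with one. Its level was 15.3 and 12.8 RPKM (no guide) and 232 and 241 RPKM (non-targeting guide) (log2 change 3.99 ± 0.09, adjusted p = 0.000167), 16.8 times as high on the RPKM scale. C15orf48, a gene induced in inflammation, had 6.26 and 4.48 RPKM (no guide) and 97.1 and 95.3 RPKM (non-targeting guide) (log2 change 3.95 ± 0.14, adjusted p = 0.000258). BCL2A1, an anti-apoptotic member of the BCL2 family, had 0.783 and 0 RPKM (no guide) and 18.3 and 19.9 RPKM (non-targeting guide) (log2 change 3.91 ± 0.29, adjusted p = 0.00214). The microRNA gene MIR147B is known to lie within C15orf48 and cannot be told apart from it here. It had 0 and 0 against 8.03 and 10.5 RPKM. At its length of 80 bases that was only 3 and 4 reads with the non-targeting guide. These 5 protein-coding genes were chosen as large rises without overlap, so their groups lay far apart compared with the gap between the 2 libraries of a group. Their levels with the e3 guides, given as the means of guide 1 and guide 2, were 150.5 and 144 RPKM for PDZK1IP1, 70.3 and 90.5 RPKM for CSF2, 376 and 311 RPKM for LCN2, 107 and 128 RPKM for C15orf48 and 16.1 and 17.4 RPKM for BCL2A1, all of them far above the libraries without a guide. For PDZK1IP1, LCN2 and C15orf48 both means also lay above both non-targeting libraries. The other 7 of the 12 largest rises were SAA1, CXCL1, MMP9, IL8, CXCL2, IL32 and S100A9, which are described with their groups. All 12 but S100A9 kept their call without any one library.

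The largest fall was that of KRT4 (ENSG00000170477.8, chromosome 12), a keratin of non-cornified squamous epithelium. Its level was 35.7 and 42.5 RPKM (no guide) and 0.332 and 0.163 RPKM (non-targeting guide) (log2 change -5.0 ± 0.16, adjusted p = 0.000258), and it was close to absent with the non-targeting guide. KRT13, the usual partner of KRT4, stood at 129.5 and 134 RPKM (no guide) and 8.95 and 9.32 RPKM (non-targeting guide) (log2 change -3.71 ± 0.07, adjusted p = 0.000108), 14.4 times as high without a guide. The clone-named gene AC019349.5, which follows KRT13 in the deposited table, had a log2 change of -3.50, and without a stated strand setting reads of overlapping genes cannot be told apart. The cell adhesion gene PCDH19 went the same way, at 32.8 and 32.3 RPKM (no guide) and 1.03 and 0.84 RPKM (non-targeting guide) (log2 change -4.12 ± 0.13, adjusted p = 0.000258). CYP26A1, the enzyme that degrades retinoic acid, had 8.66 and 6.87 RPKM (no guide) and 0.172 and 0.507 RPKM (non-targeting guide) (log2 change -2.71 ± 0.23, adjusted p = 0.00323). KLK6, a secreted serine protease gene, had 16.4 and 19.6 RPKM (no guide) and 2.12 and 2.33 RPKM (non-targeting guide) (log2 change -2.56 ± 0.14, adjusted p = 0.000982). For these 5 genes, chosen as large falls without overlap, the non-targeting libraries were low and the libraries without a guide high. The means with e3 guide 1 and guide 2 were 0.584 and 0.249 RPKM for KRT4, 18.6 and 10.8 RPKM for KRT13, 2.06 and 1.17 RPKM for PCDH19, 0.381 and 0.0939 RPKM for CYP26A1 and 1.71 and 1.81 RPKM for KLK6. The water and glycerol channel gene AQP3 (4.8 and 6.56 against 0.731 and 0.359 RPKM, -2.11), C10orf116 (11.8 and 14.7 against 3.5 and 1.6 RPKM, -2.05), the calcium channel subunit gene CACNG4 (5.1 and 4.64 against 0.465 and 0.457 RPKM, -2.0) and the laminin gene LAMA4 (9.52 and 8.1 against 1.82 and 1.16 RPKM, -1.99) completed the list with 3 pregnancy-specific glycoproteins, PSG1, PSG3 and PSG9. CACNG4, with a gene model of 460 bases, held only 11 and 9 against 1 and 1 reads. AQP3, CACNG4 and PCDH19 reached a mean of 1 RPKM only through the libraries without a guide, as did KRT4 and CYP26A1. Of these 12 genes KRT4, PCDH19, KRT13, KLK6 and PSG3 kept their call without any one library.

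**Figure D2:**
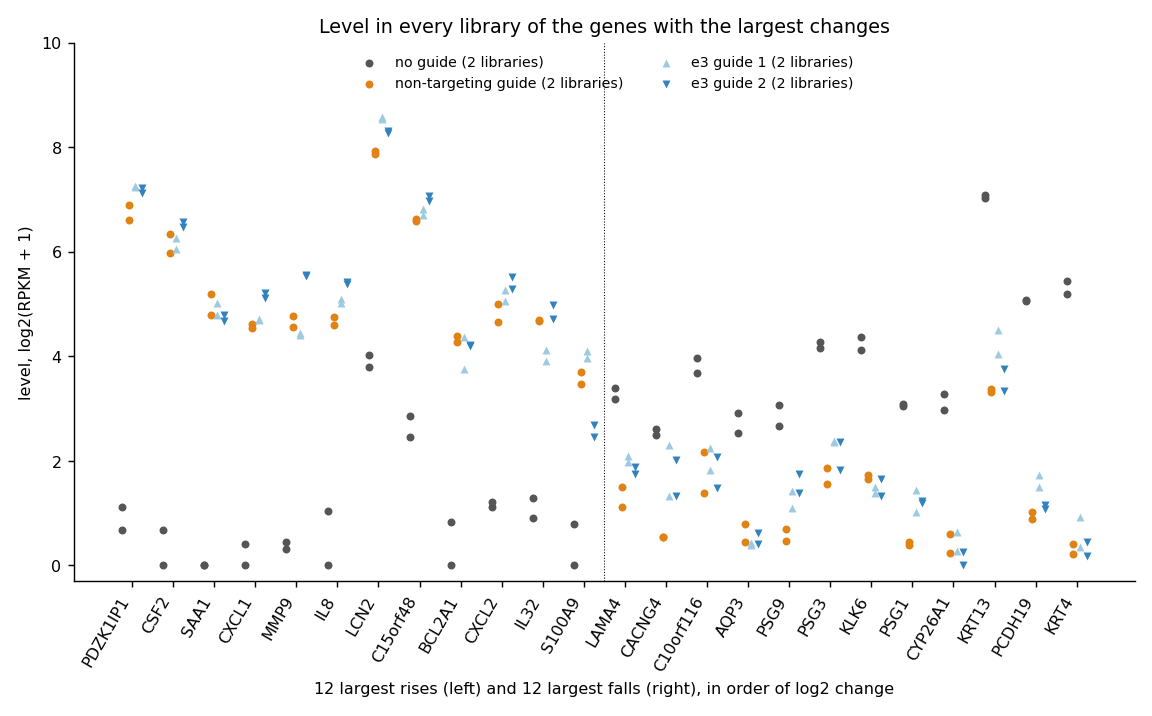
Level in each of the 8 libraries, as log2(RPKM + 1), of the 12 genes with the largest rises and the 12 with the largest falls; grey circles are the 2 libraries without a guide, orange circles the 2 with the non-targeting guide, and triangles the 4 with e3 guides, which did not enter the comparison. The 24 genes were chosen among called genes whose grey and orange points do not overlap, as in 56.5% of all genes tested.

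Genes of the NF-kB system rose, among them inhibitors, feedback genes and the subunit genes RELB and NFKB2. Of 19 tested, 12 were higher, none was lower and 7 did not pass, with a median change of 0.99. NFKBIA (ENSG00000100906.6, chromosome 14), which encodes the inhibitor IkB-alpha, had 41.5 and 42 RPKM (no guide) and 129 and 127 RPKM (non-targeting guide) (log2 change 1.6 ± 0.06, adjusted p = 0.000258). TNFAIP2 had 95.8 and 95.4 RPKM (no guide) and 213 and 213 RPKM (non-targeting guide) (log2 change 1.15 ± 0.04, adjusted p = 0.000354), and IER3, an early response gene, had 73.1 and 83.5 RPKM (no guide) and 227 and 222 RPKM (non-targeting guide) (log2 change 1.51 ± 0.07, adjusted p = 0.000614). TNIP1, a partner of the ubiquitin-editing enzyme A20, had 23.7 and 25 RPKM (no guide) and 68 and 73.9 RPKM (non-targeting guide) (log2 change 1.5 ± 0.08, adjusted p = 0.000784). These 4 genes were named for the smallest p in the list, which favours nearly equal libraries within a group and groups that lie well apart. TNFAIP3 itself, which encodes A20, rose by 1.76, BIRC3 by 2.11, NFKBIZ by 1.46, BCL3 by 1.36, TRAF1 by 1.26, RELB by 0.99, NFKB2 by 0.98 and NFKBIE by 0.95. The 7 that did not pass were NFKBIB (0.36), NFKB1 (0.30), RELA (0.27), CYLD (0.17), CHUK (0.08), REL (-0.16) and IKBKB (-0.37), among them the genes of the main dimer, RELA and NFKB1. With 1 library left out in turn, between 7 and 9 of the list were called, and NFKBIA, TNFAIP2, IER3 and TNIP1 were called each time. Of the 15 leukocyte markers 7, PTPRC among them, were at 0 in all 4 libraries. Of the others LCP1 (log2 change 1.23) and CD68 (0.76) rose and CD79A (-0.90) fell. The part of leukocytes in these changes was not tested.

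Promoters of such genes are known to hold binding sites for NF-kB, so the sequences of those that rose were searched. Of the 28 genes called higher in the lists of the NF-kB system, the chemokines and the acute-phase genes, 19 had a promoter in the RefSeq table (GRCh38.p14, 250 bases before to 50 after the gene start, a build other than that of the expression data). A match to the letters GGGA, any base and TTTCC, or GGGA, any 2 bases and TCCC, on either strand stood in 7 of the 19 promoters (36.8%), against 503 of all 35116 promoters in the table (1.43%). These lists hold many genes chosen as targets of NF-kB, so that share is no independent evidence. Among all genes called higher, these included, 19 of 458 promoters (4.15%) held a match, and without the members of these lists 12 of 439 (2.73%). Of the promoters of genes called lower 5 of 362 (1.38%) held one, and of those of all genes tested 127 of 8522 (1.49%). The AP-1 motif TGANTCA stood in 2 of the 19 promoters (10.5%), in 7.71% of all promoters, in 4.52% of those of genes tested, in 6.55% of those of genes called higher and in 7.18% of those of genes called lower. The 5 promoters with a match whose genes had the smallest p-values are shown here, 5′ to 3′ on the strand of the gene. They were chosen for holding a match, so its recurrence among them is no result. Capitals mark the match. They lie at chr14:35404700-35404999 (NFKBIA, minus strand), chr4:74099146-74099445 (CXCL2, minus strand), chr4:73869143-73869442 (CXCL1, plus strand), chr6:137867009-137867308 (TNFAIP3, plus strand) and chr19:44748458-44748757 (BCL3, plus strand).
NFKBIA: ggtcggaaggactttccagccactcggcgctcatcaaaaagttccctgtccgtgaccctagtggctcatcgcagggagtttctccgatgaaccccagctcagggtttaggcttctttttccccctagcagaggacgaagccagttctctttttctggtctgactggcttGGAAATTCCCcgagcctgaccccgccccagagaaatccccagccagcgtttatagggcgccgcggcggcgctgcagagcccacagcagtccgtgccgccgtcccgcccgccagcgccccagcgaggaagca
CXCL2: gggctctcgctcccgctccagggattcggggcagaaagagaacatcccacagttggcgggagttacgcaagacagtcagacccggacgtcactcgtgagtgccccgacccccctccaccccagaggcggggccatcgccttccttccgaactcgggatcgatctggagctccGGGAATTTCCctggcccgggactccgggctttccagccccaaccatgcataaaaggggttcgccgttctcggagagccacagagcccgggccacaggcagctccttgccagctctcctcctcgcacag
CXCL1: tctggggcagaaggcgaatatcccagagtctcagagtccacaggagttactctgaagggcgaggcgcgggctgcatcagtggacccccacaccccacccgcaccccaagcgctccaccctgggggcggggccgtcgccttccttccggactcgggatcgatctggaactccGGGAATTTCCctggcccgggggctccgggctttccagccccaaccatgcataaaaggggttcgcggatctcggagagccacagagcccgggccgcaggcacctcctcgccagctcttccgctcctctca
TNFAIP3: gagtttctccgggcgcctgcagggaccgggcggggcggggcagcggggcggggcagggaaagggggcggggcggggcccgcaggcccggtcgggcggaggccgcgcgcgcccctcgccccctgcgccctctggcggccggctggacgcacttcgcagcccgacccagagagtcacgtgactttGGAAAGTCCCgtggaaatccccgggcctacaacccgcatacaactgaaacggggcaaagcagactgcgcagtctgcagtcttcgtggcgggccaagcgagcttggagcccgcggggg
BCL3: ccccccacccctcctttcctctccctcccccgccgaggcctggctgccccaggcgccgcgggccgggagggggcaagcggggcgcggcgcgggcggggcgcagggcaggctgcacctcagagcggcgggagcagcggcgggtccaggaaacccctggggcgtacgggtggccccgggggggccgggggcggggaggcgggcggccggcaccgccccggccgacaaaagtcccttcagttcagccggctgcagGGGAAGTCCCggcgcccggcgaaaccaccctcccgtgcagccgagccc
The match began 81 bases before the gene start in NFKBIA, 78 in CXCL2, 79 in CXCL1 and 67 in TNFAIP3, while that of BCL3 lay just after the start. CXCL1 and CXCL2, which are close paralogs, held the same letters in the match. A match is a description of the sequence and does not show that the factor was bound there.

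Of 17 chemokines and colony-stimulating factors listed 9 were tested, of which 7 rose, none fell and 2 did not pass. At least CSF2, CXCL1 and IL8 reached a mean of 1 RPKM only through the non-targeting libraries. Neither that count nor the median of 2.27 (3.91 with a minimum of 5 RPKM, 4.57 with a pseudocount of 0.1) therefore describes the whole list. CXCL1 and CXCL2, which attract neutrophils, stood at 0.329 and 0 RPKM (no guide) and 23.5 and 22.2 RPKM (non-targeting guide) (log2 change 4.37 ± 0.19, adjusted p = 0.000479) and at 1.17 and 1.3 RPKM (no guide) and 31.1 and 24.2 RPKM (non-targeting guide) (log2 change 3.67 ± 0.16, adjusted p = 0.000479). IL8, now named CXCL8, had 1.06 and 0 RPKM (no guide) and 25.8 and 23.1 RPKM (non-targeting guide) (log2 change 4.14 ± 0.34, adjusted p = 0.00298). The libraries without a guide were thus near 0 for these 3 genes and for CSF2. CXCL3 rose by 2.27, CXCL16 by 0.91 and CSF1, the macrophage growth factor gene, by 0.90, while CCL20 (1.74) and CCL28 (0.20) did not pass. CXCL1, CXCL2 and CXCL3 are close paralogs, and their single values are uncertain where reads fit more than one of them. Leaving out each library in turn, 4 to 5 of the list were called, and CXCL1, CXCL2, IL8 and CSF2 were among them each time.

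Among interleukins, TNF family members and their receptors 8 of 17 tested rose, 1 fell and 8 did not pass (median 0.61). TNFRSF9 reached a mean of 1 RPKM only through the non-targeting libraries, so that count does not describe the whole list. IL32, a cytokine gene of epithelial and immune cells, had 0.87 and 1.45 RPKM (no guide) and 24.4 and 24.9 RPKM (non-targeting guide) (log2 change 3.58 ± 0.17, adjusted p = 0.000599), with the groups far apart. LIF, an IL-6 family cytokine gene, had 17.6 and 19.9 RPKM (no guide) and 45.3 and 47 RPKM (non-targeting guide) (log2 change 1.26 ± 0.09, adjusted p = 0.00201). TNFRSF9, a receptor gene that NF-kB is known to raise, had 0.746 and 0.934 RPKM (no guide) and 12.1 and 8.01 RPKM (non-targeting guide) (log2 change 2.56 ± 0.23, adjusted p = 0.00372), and IFNGR2, a subunit of the interferon-gamma receptor, had 6.29 and 7.94 RPKM (no guide) and 17.1 and 18 RPKM (non-targeting guide) (log2 change 1.2 ± 0.13, adjusted p = 0.00787). The gene that fell was IL6R (-0.92), the receptor chain for IL-6, while IL6ST, its signalling partner, rose by 0.61. In the 4 fits with 1 library left out, 2 or 3 of the list were called, IL32 and LIF each time.

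Of 28 epithelial acute-phase and antimicrobial genes listed 11 were tested, and the others lay under a mean of 1 RPKM. Among those tested 9 rose, none fell and 2 did not pass, among them the complement gene CFB (1.34). At least PDZK1IP1, SAA1, S100A9 and DEFB4A entered the test only through the non-targeting libraries, so neither that count nor the median of 2.32 describes the whole list. With a minimum of 5 RPKM 5 were called with a median of 3.99, and with a pseudocount of 0.1 the median was 4.69. SAA1, which encodes the acute-phase protein serum amyloid A, was listed at 0 in both libraries without a guide and stood at 35.3 and 26.6 RPKM with the non-targeting guide (log2 change 4.98 ± 0.18, adjusted p = 0.000258). The size of that log2 change depends on the value of 1 added before the logarithm. SAA1 has the close paralog SAA2, whose reads it can share, and SAA2 and SAA4 rose by 2.29 and 1.80. SERPINA1, the gene of the protease inhibitor alpha-1 antitrypsin, had 8.95 and 10.4 RPKM (no guide) and 44 and 44.7 RPKM (non-targeting guide) (log2 change 2.09 ± 0.10, adjusted p = 0.000614). S100A9, a calcium-binding protein gene of inflamed epithelium and myeloid cells, had 0.739 and 0 RPKM (no guide) and 10.0 and 12 RPKM (non-targeting guide) (log2 change 3.18 ± 0.30, adjusted p = 0.00457). DEFB4A, the beta-defensin 2 gene, was at 0 without a guide and at 5.63 and 7.74 RPKM with one (log2 change 2.93 ± 0.24, adjusted p = 0.00302), and it has a near-identical copy. The complement gene C3 rose by 2.32. PDZK1IP1 and LCN2 complete the 9. When single libraries were left out, 5 or 6 of the list were called, always with PDZK1IP1, LCN2, SAA1 and SERPINA1.

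MHC genes, which present peptides to T cells, rose in class I and class II. Of 16 tested 10 rose, none fell and 6 did not pass (median 0.54). The class I gene HLA-B stood at 789 and 798 RPKM (no guide) and 1296 and 1309 RPKM (non-targeting guide) (log2 change 0.71 ± 0.03, adjusted p = 0.000258) and HLA-C at 690.3 and 699 RPKM (no guide) and 943 and 973 RPKM (non-targeting guide) (log2 change 0.46 ± 0.03, adjusted p = 0.00159). In both of them both non-targeting libraries lay above both others, and no called gene had overlapping groups. CD74, the invariant chain of class II, had 17.1 and 22.2 RPKM (no guide) and 126 and 127 RPKM (non-targeting guide) (log2 change 2.64 ± 0.12, adjusted p = 0.000599), 6.45 times as high on the RPKM scale. The class II gene HLA-DRA rose by 1.99, the immunoproteasome genes PSMB9 and PSMB8 by 0.95 and 0.34, TAPBP by 0.64, HLA-F by 0.60 and B2M by 0.39. HLA genes share sequence with each other, so single values are uncertain. Each fit that left out 1 library called 4 of the list, HLA-B, HLA-C and CD74 among them.

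Of 31 interferon-stimulated genes tested 10 rose, none fell and 21 did not pass (median 0.32). MX1, which encodes an antiviral GTPase, had 1.09 and 1.77 RPKM (no guide) and 5.88 and 6.56 RPKM (non-targeting guide) (log2 change 1.58 ± 0.21, adjusted p = 0.0113). IFI6 had 11.1 and 12.9 RPKM (no guide) and 26.5 and 25.8 RPKM (non-targeting guide) (log2 change 1.07 ± 0.11, adjusted p = 0.00543), ISG15, a ubiquitin-like modifier gene, had 139 and 139.6 RPKM (no guide) and 198 and 187 RPKM (non-targeting guide) (log2 change 0.46 ± 0.05, adjusted p = 0.00688), and BST2, the gene of the virion tether, had 89.9 and 92 RPKM (no guide) and 125 and 138 RPKM (non-targeting guide) (log2 change 0.53 ± 0.07, adjusted p = 0.0101). The signal transducer gene STAT2 (log2 change -0.41) did not pass. Of 13 sensors of foreign nucleic acid and their adaptors, 3 rose, 1 fell and 9 did not pass. The called share was 30.8% of the sensors and 32.3% of the interferon-stimulated genes, against 9.07% of all genes tested. The DNA sensor gene IFI16 rose by 0.59 (27.6 and 26.8 against 43 and 40.2 RPKM), the transcription factor gene IRF7 by 0.74 (4.03 and 4.38 against 7.63 and 7.67 RPKM) and MB21D1, the gene of cGAS, by 0.50 (12.8 and 13.9 against 20.1 and 18.5 RPKM), and TMEM173, the gene of STING, changed by -0.50 (31.3 and 37.8 against 23.6 and 24.3 RPKM). The RNA sensor genes DDX58 (0.09) and IFIH1 (0.34) did not pass. Without any one library 0 or 1 interferon-stimulated gene and no sensor was called (limma), so these calls rest on all 4 libraries.

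Proteases that act on the matrix, and the plasminogen activators, moved in both directions. Of 17 tested 7 rose, 3 fell and 7 did not pass (median 0.28). MMP9 entered the test only through the non-targeting libraries, so that count does not describe the whole list. MMP9, the gene of gelatinase B, was at 0.25 and 0.371 RPKM (no guide) and 26.3 and 22.7 RPKM (non-targeting guide) (log2 change 4.28 ± 0.16, adjusted p = 0.000258). MMP14, the membrane-bound collagenase gene, had 6.9 and 5.45 RPKM (no guide) and 26.7 and 28.9 RPKM (non-targeting guide) (log2 change 2.01 ± 0.13, adjusted p = 0.00163). PLAU, which encodes the plasminogen activator urokinase, had 208 and 191 RPKM (no guide) and 397 and 393 RPKM (non-targeting guide) (log2 change 0.98 ± 0.05, adjusted p = 0.000786), and its receptor PLAUR had 41.9 and 42.2 RPKM (no guide) and 75.9 and 80.3 RPKM (non-targeting guide) (log2 change 0.88 ± 0.06, adjusted p = 0.00213). MMP2 rose by 1.93 and ADAM8 by 0.45, while the collagenase gene MMP13 fell by 1.32, the inhibitor gene TIMP2 by 0.38 and PLAT by 0.27. With 1 library left out in turn, 5 of the list were called each time, with MMP9, MMP14, PLAU and PLAUR in all 4 fits.

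Mesenchymal genes of the epithelial-mesenchymal transition were likewise mixed. Of 22 tested 9 rose, 3 fell and 10 did not pass (median 0.48). VIM, the intermediate filament gene of mesenchymal cells, had 6.31 and 6.97 RPKM (no guide) and 39.4 and 41 RPKM (non-targeting guide) (log2 change 2.43 ± 0.10, adjusted p = 0.000383). The matrix genes TGFBI (491 and 494 against 855 and 858 RPKM, 0.80 ± 0.03), FN1 (30.6 and 31.4 against 71.4 and 73.8 RPKM, 1.2 ± 0.07) and TNC (49.6 and 49.9 against 94.7 and 97.5 RPKM, 0.94 ± 0.06) rose as well. THBS1, another matricellular gene, fell by 1.07, AXL by 0.55 and S100A4 by 0.56. The transcription factor genes SNAI1 (0.52), SNAI2 (0.45), TWIST1 (0.17) and TWIST2 (0.74) did not pass. Levels with e3 guide 1 and guide 2 were 51.6 and 68.1 RPKM for VIM, 1305 and 1432 RPKM for TGFBI, 108 and 140.2 RPKM for FN1 and 129 and 154 RPKM for TNC. Among collagens, laminins and integrins 12 of 24 rose, 4 fell and 8 did not pass (median 0.28). LAMB3, a laminin chain gene of epithelial basement membrane, had 74.9 and 75.2 against 123 and 124 RPKM (0.71 ± 0.05), and the laminin gene LAMA3 rose by 1.02. ITGA5, the fibronectin receptor subunit, had 21.5 and 21.1 against 45.4 and 44.8 RPKM (1.05 ± 0.07) and COL6A2 had 45.8 and 51.7 against 103 and 106 RPKM (1.09 ± 0.08). The 4 that fell were LAMA4 (-1.99), LAMA5 (-0.59), LAMB2 (-0.56) and ITGB4 (-0.69). Leaving out each library in turn, 4 or 5 of the mesenchymal list and 6 to 8 of the matrix list were called.

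**Figure D3:**
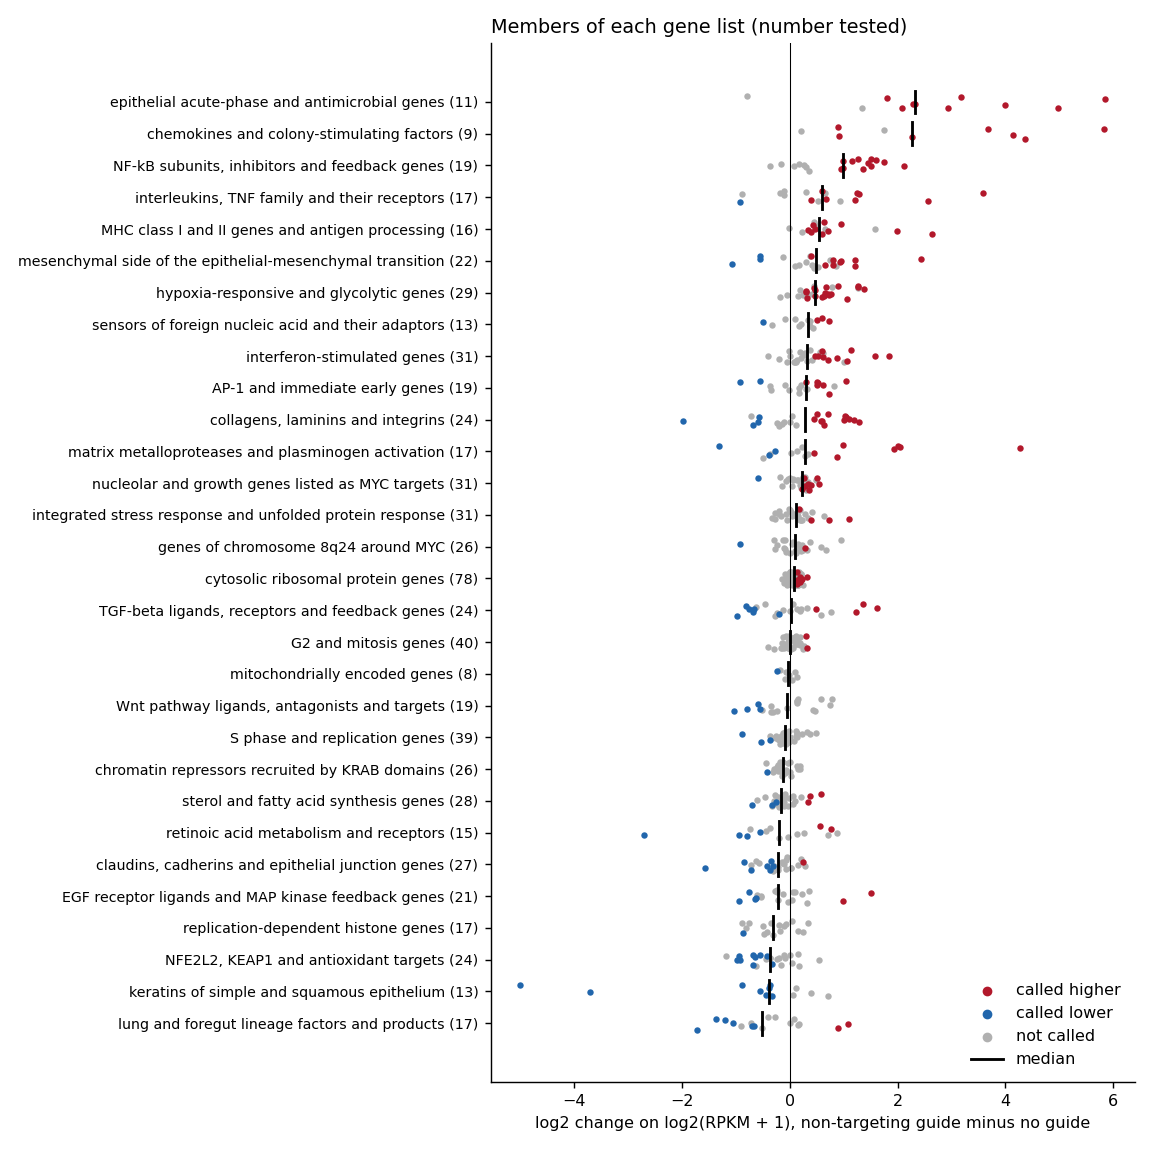
Log2 change, non-targeting guide minus no guide, of every tested member of the gene lists shown, ordered by the median (black bar), with the number tested in brackets; red points were called higher, blue points lower and grey points were not called. Acute-phase genes (median 2.32) lie at the top and lung and foregut lineage genes (median -0.51) at the bottom.

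Among keratins KRT4 and KRT13 fell by far the most, and the keratins of simple epithelium fell by less than 0.5 on the log2 scale. Of 13 tested 8 fell, none rose and 5 did not pass (median -0.38). KRT4 entered the test only through the libraries without a guide, so that count does not describe the whole list. Beside KRT4 and KRT13, KRT18 had 555 and 539 against 428 and 418 RPKM without and with the guide (log2 change -0.37 ± 0.03, adjusted p = 0.00462) and KRT7 had 473 and 500.0 against 367 and 381 RPKM (log2 change -0.38 ± 0.04, adjusted p = 0.00826). KRT19 (1307 and 1364 against 1009 and 1123 RPKM, -0.33 ± 0.05) and KRT8 (565 and 627 against 423 and 458 RPKM, -0.43 ± 0.06) were among the 5 most abundant genes that fell. KRT15 fell by 0.90 and KRT80 by 0.56. The squamous keratins KRT6A (0.40), KRT16 (0.06) and KRT17 (0.70) did not pass, nor did KRT10 (0.11) and KRT81 (-0.38). Of 27 junction genes 7 fell, 1 rose and 19 did not pass (median -0.22). Their called share was 29.6%, against 9.07% of all genes tested. The polarity gene CRB3 (21 and 23.3 against 12.6 and 13.5 RPKM, -0.71), the tight junction genes CLDN3 (11 and 14 against 2.69 and 4.46 RPKM, -1.58) and TJP3 (19.4 and 18.6 against 8.75 and 11.6 RPKM, -0.85) and the membrane protease gene ST14 (102 and 108 against 81.4 and 82.7 RPKM, -0.35) were lower. CDH1, which encodes E-cadherin, had a change of -0.07 and EPCAM one of 0.03, and neither passed. In the 4 fits with 1 library left out, 2 or 3 keratins and 0 or 1 junction gene were called.

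Lung and foregut lineage genes had the lowest median of the lists in the plot of gene lists, -0.51. Of 17 tested 6 fell, 2 rose and 9 did not pass. SOX2, a transcription factor gene of the proximal airway and foregut, had 19.5 and 17.4 RPKM (no guide) and 4.52 and 5.28 RPKM (non-targeting guide) (log2 change -1.72 ± 0.13, adjusted p = 0.00217). NKX2-1 had 43.2 and 42.1 RPKM (no guide) and 29 and 23.2 RPKM (non-targeting guide) (log2 change -0.70 ± 0.12, adjusted p = 0.0231). ELF3, an epithelial transcription factor gene, had 24.3 and 25.4 RPKM (no guide) and 12.9 and 10.2 RPKM (non-targeting guide) (log2 change -1.05 ± 0.13, adjusted p = 0.00988), and the membrane mucin gene MUC16 had 9.38 and 9.61 RPKM (no guide) and 3.31 and 3.84 RPKM (non-targeting guide) (log2 change -1.2 ± 0.14, adjusted p = 0.00806). In all 4 the libraries with the guide were lower, and no called gene had overlapping groups. MUC20 fell by 1.37 and SOX4 by 0.67. The 2 that rose were CEBPD (6.16 and 5.33 against 13.8 and 12.8 RPKM, 1.09) and CEBPB (0.89), transcription factor genes of the acute-phase response. FOXA1 (0.00), FOXA2 (-0.90), GATA6 (0.16) and SOX9 (0.09) did not pass. Of 15 genes of retinoic acid metabolism and its receptors 4 fell, 2 rose and 9 did not pass (median -0.19). CYP26A1 entered the test only through the libraries without a guide, so that count does not describe the whole list. Besides CYP26A1, ALDH1A3, the enzyme gene for the last step of retinoic acid synthesis, fell (129.8 and 131 against 73.6 and 75 RPKM, log2 change -0.80 ± 0.05, adjusted p = 0.0015), as did RDH10 (14.6 and 15.8 against 7.6 and 7.31 RPKM, -0.94) and RXRA (-0.56). The binding protein gene CRABP2 (225 and 224 against 339 and 325 RPKM, 0.56) and the transporter gene STRA6 (0.76) rose. ALDH1A3 stood at 129 and 144 RPKM with e3 guide 1 and guide 2, near the cells without a guide. When single libraries were left out, 0 to 3 lineage genes and 2 or 3 retinoid genes were called.

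Of 29 hypoxia-responsive and glycolytic genes tested 18 rose, none fell and 11 did not pass, with a median of 0.47. LDHA, which encodes lactate dehydrogenase A, had 263 and 261 RPKM (no guide) and 428 and 426 RPKM (non-targeting guide) (log2 change 0.70 ± 0.03, adjusted p = 0.000614). GAPDH, often used as a reference gene, had 1064 and 1086 RPKM (no guide) and 1486 and 1485 RPKM (non-targeting guide) (log2 change 0.47 ± 0.02, adjusted p = 0.000809), so it differed between these groups by more than between the 2 libraries of either. VEGFA, the gene of the vascular growth factor, had 24.8 and 24.2 RPKM (no guide) and 52 and 52.5 RPKM (non-targeting guide) (log2 change 1.06 ± 0.07, adjusted p = 0.00163), and P4HA2, a collagen prolyl hydroxylase gene, had 7.1 and 7.22 RPKM (no guide) and 21.3 and 19.1 RPKM (non-targeting guide) (log2 change 1.37 ± 0.11, adjusted p = 0.00263). The glycolytic genes PGK1 (0.64), ALDOA (0.59), HK2 (0.72), PFKP (0.47), PGAM1 (0.44), ENO1 (0.31), GPI (0.30) and ENO2 (1.26) rose too, as did PFKFB4 (1.27), PDK1 (0.89), P4HA1 (0.77), EGLN1 (0.67), BNIP3 (0.65) and TXNIP (0.29). The glucose transporter gene SLC2A1 (-0.18) and ADM (-0.05), both usually raised by hypoxia, did not pass. With e3 guide 1 and guide 2 LDHA stood at 379 and 329 RPKM and GAPDH at 1361 and 1289 RPKM, between the other groups, and VEGFA at 81.3 and 97.2 RPKM, above both. Without any one library 3 to 5 of the list were called, LDHA, GAPDH and VEGFA each time.

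NFE2L2 is the transcription factor of the antioxidant response. Of 24 genes tested from the list of NFE2L2, KEAP1 and their targets 9 fell, none rose and 15 did not pass (median -0.36). NQO1, a quinone reductase gene and a classic target, had 256 and 245 RPKM (no guide) and 128 and 125 RPKM (non-targeting guide) (log2 change -0.98 ± 0.05, adjusted p = 0.0006). The ferritin genes FTL (1219 and 1176 against 871 and 915 RPKM, -0.42 ± 0.04) and FTH1 (2649 and 2480.1 against 1701 and 1506 RPKM, -0.68 ± 0.06) were among the most abundant genes that fell, and ferritin genes have many processed pseudogenes that can share their reads. SLC7A11, the cystine transporter gene, fell by 0.93, GSR by 0.68, the glutathione synthesis gene GCLC by 0.65, HMOX1 by 0.55 and TKT by 0.34. NFE2L2 itself (0.17) and its inhibitor KEAP1 (0.04) did not pass. TFRC, the transferrin receptor gene, which like ferritin serves iron handling, also fell (70.6 and 70.1 against 48.5 and 44.8 RPKM, -0.58). With 1 library left out in turn, 2 to 4 were called, with NQO1 each time.

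**Figure D4:**
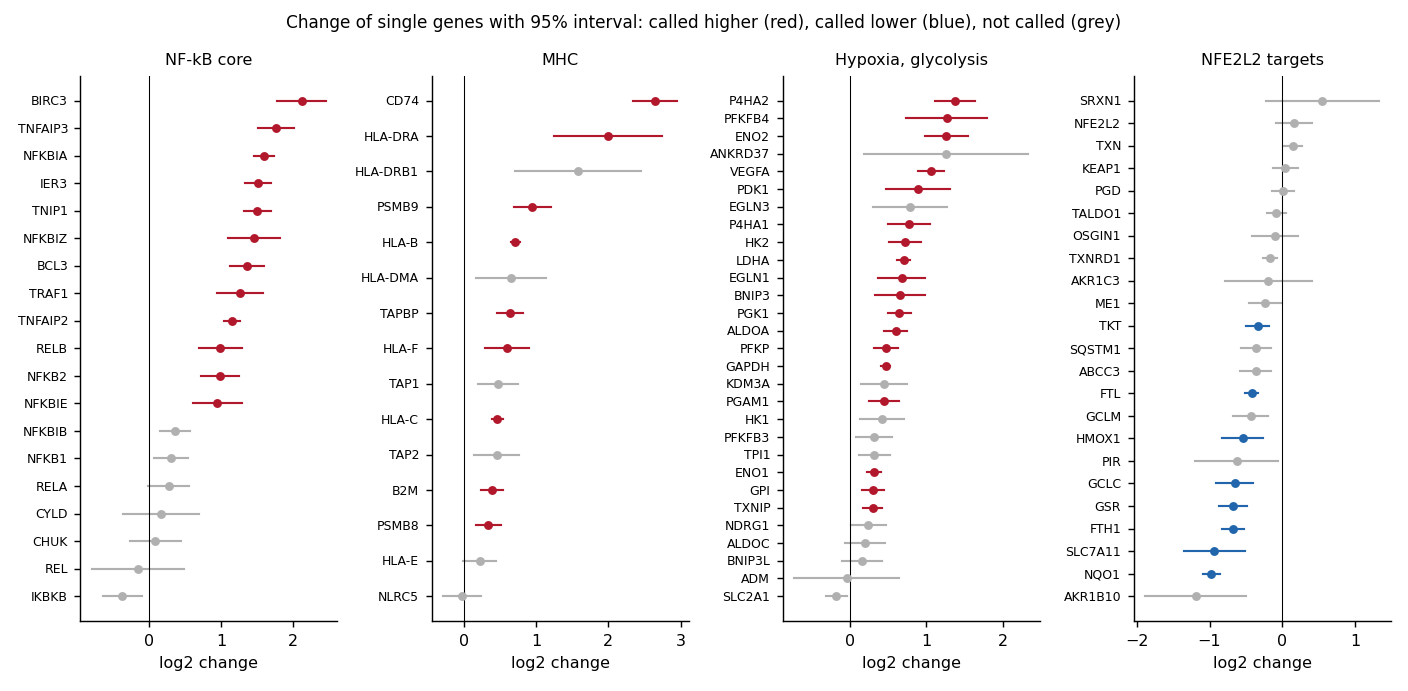
Log2 change (horizontal axis) of tested genes of 4 lists with its 95% interval from limma; red genes were called higher, blue genes lower and grey genes were not called. In the NF-kB panel BIRC3 (2.11) and TNFAIP3 (1.76) lie highest and RELA (0.27) and NFKB1 (0.30) near 0, and in the NFE2L2 panel NQO1 (-0.98) lies well below 0.

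Immediate early genes split within the AP-1 family. Of 19 tested 7 rose, 2 fell and 10 did not pass (median 0.30). JUN had 48.1 and 47.7 RPKM (no guide) and 101 and 97.7 RPKM (non-targeting guide) (log2 change 1.03 ± 0.06, adjusted p = 0.000982), and EGR1 (86.2 and 84.1 against 140.4 and 142 RPKM, 0.72), JUNB (130.0 and 131 against 190.4 and 188 RPKM, 0.53) and FOSL1 (139.6 and 141 against 196 and 205 RPKM, 0.51) rose with it, whereas FOS and FOSB fell by 0.92 and 0.55. Of 21 EGF receptor ligands and MAP kinase feedback genes 4 fell and 2 rose (median -0.23). The receptor genes ERBB2 (64.6 and 69.1 against 39.3 and 38.8 RPKM, -0.76) and ERBB3 (17.6 and 17.7 against 8.4 and 8.91 RPKM, -0.95) fell with MYEOV (36.6 and 40.7 against 24.3 and 25 RPKM, -0.63) and EREG (-0.65), and the ligand gene HBEGF rose by 0.98 beside IER3. The feedback phosphatase gene DUSP6 (0.05) and EGFR (-0.24) did not pass. In the TGF-beta pathway 4 of 24 rose, 6 fell and 14 did not pass, with a median of 0.03 that turned to -0.20 with a minimum of 5 RPKM and lay below 0 without any one library. The ligand genes went apart, TGFB1 up (6.01 and 8.51 against 20.1 and 19.9 RPKM, 1.36) and TGFB2 down (17 and 15.2 against 7.65 and 7.67 RPKM, -0.98). The feedback gene PMEPA1 (3.22 and 2.95 against 8.92 and 8.34 RPKM, 1.24) and the latent TGF-beta binding protein genes LTBP2 (1.62) and LTBP4 (0.49) rose, and LTBP3 (52 and 57.2 against 30.3 and 31.3 RPKM, -0.81), ID1 (-0.20), ID2 (-0.68), ID3 (-0.66) and GDF15 (-0.76) fell. None of 19 Wnt genes rose and 4 fell, the antagonist DKK1 (29.6 and 28.8 against 14.1 and 13.3 RPKM, -1.04), the receptors LGR4 (11.3 and 11 against 5.75 and 6.2 RPKM, -0.80) and FZD6 (28.8 and 28.3 against 19 and 18.3 RPKM, -0.59) and the transcription factor TCF7L2 (9.96 and 9.76 against 6.28 and 6.62 RPKM, -0.54). The called share was 28.6% of the EGF receptor list and 21.1% of the Wnt list, against 9.07% of all genes tested. Leaving out each library in turn, 2 to 5 immediate early genes, 1 or 2 of the EGF receptor list and 0 or 1 each of the TGF-beta and Wnt lists were called.

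MYC (ENSG00000136997.9, chromosome 8), the gene near which the enhancer e3 is known to lie, was slightly higher with the non-targeting guide. Its level was 74.6 and 72.7 RPKM (no guide) and 88.9 and 90.1 RPKM (non-targeting guide) (log2 change 0.28 ± 0.05, adjusted p = 0.0367), and the groups did not overlap. It did not pass with any one library left out (limma adjusted p from 0.121 to 0.178), nor under quantile normalization (log2 change 0.20, adjusted p = 0.0978). Of 26 genes of its region 8q24 that were tested, 1 other was called, FAM84B, which fell (65.8 and 65 against 34.4 and 34 RPKM, log2 change -0.92 ± 0.06, adjusted p = 0.00196) and kept that call without any one library. Of the 26 genes of 8q24, MYC included, 7.69% were called, against 9.07% of all genes tested. Nucleolar and growth genes listed as MYC targets rose in 8 of 31 cases, fell in 1 and did not pass in 22 (median 0.23). The mitochondrial chaperonin gene HSPE1 (215 and 209.6 against 305 and 299 RPKM, 0.51), nucleolin NCL (342 and 341 against 400.4 and 403 RPKM, 0.23) and NOLC1 (61.7 and 61.2 against 79.2 and 82 RPKM, 0.39) rose, and TFRC fell. Cytosolic ribosomal protein genes rose in 10 of 78 cases (12.8%, against 4.89% higher over all genes tested) by at most 0.32. Their median of 0.08 turned to -0.04 under quantile normalization. RPL35 (0.22), RPL24 (0.19) and RPS15 (0.13) were called, and RPS15 changed sign under that scaling. In the 4 fits with 1 library left out, no ribosomal protein gene and at most 1 gene of the MYC target list was called (limma).

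Of the S phase genes 7.69% were called and of the G2 and mitosis genes 5%, against 9.07% of all genes tested. Of 39 S phase genes 3 fell (6 were called with all 8 libraries in the fit), the uracil glycosylase UNG (48.1 and 45.3 against 31.4 and 32.5 RPKM, -0.53), the cyclin CCNE2 (10.8 and 9.02 against 5.35 and 4.42 RPKM, -0.89) and the helicase subunit MCM2 (47.2 and 50.4 against 36.9 and 38 RPKM, -0.37), and none rose (median -0.08). Of 40 G2 and mitosis genes UBE2C (133 and 139 against 176 and 163 RPKM, 0.31) and AURKB (69.5 and 67 against 84.8 and 83.9 RPKM, 0.30) rose and none fell (median 0.00), while PLK1 (0.19) and CDC25C (-0.41) did not pass. Stress-response genes rose in 4 of 31 cases (median 0.12), DDIT4 (13.1 and 13.5 against 30.7 and 28.4 RPKM, 1.09), SDF2L1 (67.7 and 57.8 against 107 and 102 RPKM, 0.73), MANF (42 and 45.2 against 54.4 and 61.2 RPKM, 0.40) and the chaperone HSPA5 (319.7 and 318 against 365 and 357 RPKM, 0.18), while ATF4 (0.11) and DDIT3 (-0.27) did not pass. Of the stress-response genes 12.9% were called, against 9.07% of all genes tested. Sterol and fatty acid synthesis genes were called in both directions, with 3 of 28 higher and 3 lower (median -0.16). Their called share was 21.4%, and 21 of the 28 changes were negative. Without the filter on low genes 1 of this list was called, and without the variance trend 0. ACLY (0.33) and ELOVL6 (0.58) rose, and LSS (-0.71) and FASN (-0.26) fell with HMGCS1 (-0.33). At most 1 gene of each of these lists was called without any one library.

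KRAB domains silence genes by recruiting chromatin repressors. Of 26 such genes tested, 1 fell, the heterochromatin protein gene CBX5 (26.4 and 26 against 18.8 and 19.7 RPKM, log2 change -0.43 ± 0.08, adjusted p = 0.0353), and 25 did not pass (median -0.13). The called share of this list was 3.85%, against 9.07% of all genes tested. TRIM28, the direct partner of KRAB domains, had a change of 0.01, SETDB1 one of -0.22, and CBX3 (0.20), MBD3 (-0.24) and SIN3A (-0.29) did not pass. When single libraries were left out, none of this list was called.

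The most abundant genes among those that rose included the actin gene ACTB (2019 and 2060.1 against 2283 and 2345 RPKM, 0.18 ± 0.02), the actin-binding TMSB10 (1734 and 1883 against 2388 and 2554 RPKM, 0.45 ± 0.05) and PFN1 (1017 and 1118 against 1367 and 1367 RPKM, 0.36 ± 0.05), and GAPDH. Under quantile normalization, which gives genes of equal rank the same value, the difference in ACTB was 0. Among those that fell they were FTH1, FTL, KRT19, KRT8 and ACTN4 (589 and 628 against 451 and 466 RPKM, -0.41 ± 0.04), an actin crosslinker gene. Replication-dependent histone genes were listed as genes whose transcripts lack a poly(A) tail. They fell in 1 of 17 cases (5.88%, against 4.19% lower over all genes tested), HIST1H2BD (25.9 and 24.5 against 14.3 and 12.4 RPKM, -0.87), with a median of -0.31. In these poly(A) libraries HIST1H2BK stood at 132 and 163 RPKM without a guide. Transcripts of some listed genes may therefore carry a tail, so the list is no sure report on RNA selection. HIST1H2BK (-0.42) and HIST1H1C (-0.48) did not pass. Of 8 mitochondrially encoded genes MT-CO1 fell (2977 and 2961 against 2586 and 2482 RPKM, -0.23), and MT-CYB, MT-ND1 and MT-ND3 did not pass. The called share of these genes was 12.5%, against 9.07% of all genes tested. Log2 change and gene model length had a Spearman rho of -0.16 over 13989 genes, which are not independent of each other. The part of RNA selection or of gene length in the results above was not tested. Called genes were spread over the genome. On chromosomes 1 to 22 and X between 2.62% and 6.96% of tested genes were higher and between 1.82% and 5.77% lower, and the median change per chromosome lay between -0.05 and 0.03.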

How the data were processed

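The deposited values are RPKM that the authors computed, 1 column per library, for 52576 genes under versioned Ensembl identifiers. Per the submitters' processing notes, hg19 was a build and Cufflinks a tool of the study, with no role stated. How reads were aligned, counted and assigned to strands is not given in the sources used here. Depth was inferred from RPKM steps: in 99.9% of tested genes the 8 libraries gave whole reads to within 0.03 reads. Over genes with at least 10 reads, chi-square per degree of freedom was 2.05 within the no-guide pair and 1.88 within the non-targeting pair, above sampling noise for single reads, and 10.8 to 11.8 between groups, so each library counted as 1 sample.

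Genes whose mean reached 1 RPKM were fitted, as log2(RPKM + 1), by limma 3.58.1 (R 4.3.3) (2 groups, 2 residual degrees of freedom, variance trend, two-sided) and adjusted by the Benjamini-Hochberg method over all genes tested. No count test was run, because the deposited unit is RPKM. A permutation test of 2 against 2 libraries cannot go below 0.333 and was not used. Errors are standard errors of the log2 change, which understates the change of low genes. The fit was tested on simulated data.

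The comparison, the 37 gene lists and the rule for named genes were chosen with earlier results of these data known. The rule took, among called genes without overlap, the 12 that rose most and the 12 that fell most, the 5 most abundant per direction, 4 members per list by smallest p, genes under 0.5 RPKM in one group and at 5 or more in the other, MYC, and called genes of 8q24; it passed over unnamed, pseudogene, antisense and small RNA genes. Other list members are named with their values only. A few named genes and 1 list are not reported here, though they count in every total. Gene type and chromosome came from GENCODE 29 (another build) for 13432 tested genes, and promoters from RefSeq.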

Additional observations from a re-analysis of the deposited data

How the results depend on the processing

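Of the alternatives, all 8 libraries in 1 fit (1726 genes called), a minimum mean of 5 RPKM (1396), median-ratio scaling (1306), a pseudocount of 0.1 (1195) and quantile normalization (1175) each left the number of called genes within 1.5 times of 1270. Without a filter on low genes 488 were called (264 higher, 224 lower, 198 with a log2 change of at least 1 in size), and 482 of these were among the 1270 in the same direction. Without the variance trend 310 were called (150 higher, 160 lower), 302 of them shared. With a minimum of 5 RPKM 199 had a log2 change of at least 1 in size, since fewer genes were tested. Leave-one-out fits called 128 to 215 genes, 94 to 107 higher and 34 to 109 lower, and 89 to 135 with a log2 change of at least 1 in size. Of the called genes 53.9% were higher, against 47.9% under quantile normalization. Leaving out a no-guide library moved this share to 68.6% and 73.4%, and the cause was not tested.

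The replicate numbers are shared by both groups, but same-numbered libraries did not deviate together (Pearson r = 0.0054 across 13997 genes). The labels do not say whether a number marks a shared culture or day, and so low a correlation cannot exclude it. With the replicate number as a block 1140 genes were called, 1047 of them shared. MYC missed the threshold with it (adjusted p = 0.0522).

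Among named genes ACTB and MT-ND1 had a log2 change of 0 under quantile normalization, which sets equal ranks equal, and RPS15 one of -0.058. ESAM ranged from -0.045 to 0.31 with 1 library left out. No other named gene changed direction in any alternative. Under the same normalization the medians of the ribosomal protein, G2 and mitosis and Wnt lists changed sign, and that of the TGF-beta list did so with a minimum of 5 RPKM and in each leave-one-out fit. Without a filter and without the variance trend, respectively, 9 and 3 hypoxia and glycolysis genes (of 18 called), 5 and 2 of the NFE2L2 list (of 9), 6 and 2 MHC genes (of 10), 5 and 2 keratins (of 8) and 1 and 0 junction genes (of 8) were called. Depth limits genes near 1 RPKM, which held 13 to 14.6 reads per library at the median length, and differences below the spread of 2 libraries were not detectable.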

Other observations

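Metallothioneins, pregnancy-specific glycoproteins and genes with a ZNF symbol were picked out after their values were seen. Metallothioneins, small proteins that bind zinc and copper, rose in 6 of 6 genes counted (median 2.14), as did MT1L, which that count left out (4.15 and 3.46 against 13 and 13.8 RPKM, 1.59). MT1G reached a mean of 1 RPKM only through the non-targeting libraries, so the count does not describe the whole family. MT2A stood at 96.3 and 83 RPKM (no guide) and 388 and 409 RPKM (non-targeting guide) (log2 change 2.14 ± 0.08, adjusted p = 0.000258), and MT1E at 15.6 and 13.3 RPKM (no guide) and 74.1 and 62.9 RPKM (non-targeting guide) (log2 change 2.17 ± 0.12, adjusted p = 0.000908). MT1X (8.03 and 14.7 against 52.8 and 50.6 RPKM, 2.15), MT1F (2.1 and 2.8 against 16 and 11 RPKM, 2.06), MT1G (0.284 and 0.316 against 5.99 and 5.6 RPKM, 2.39) and MT1A (5.92 and 3.59 against 14.6 and 10.6 RPKM, 1.26) rose with them, and MT1A did not pass with all 8 libraries in the fit (adjusted p = 0.0714). MT2A and MT1E kept their call without any one library. With e3 guide 1 and guide 2 MT2A stood at 393 and 408 RPKM, close to the non-targeting libraries. These genes lie in 1 cluster on chromosome 16 and are near-identical, so reads may be shared between them.

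Pregnancy-specific glycoproteins, secreted proteins best known from placenta, fell in 4 of 4 genes tested (median -2.39). PSG1 and PSG9 reached a mean of 1 RPKM only through the libraries without a guide. Neither that count nor the median therefore describes the whole family. PSG3 stood at 18.3 and 16.9 RPKM (no guide) and 1.96 and 2.62 RPKM (non-targeting guide) (log2 change -2.5 ± 0.15, adjusted p = 0.00133), PSG6 at 10.6 and 12.1 RPKM (no guide) and 2.53 and 2.48 RPKM (non-targeting guide) (log2 change -1.81 ± 0.14, adjusted p = 0.00243), PSG1 at 7.24 and 7.51 RPKM (no guide) and 0.306 and 0.36 RPKM (non-targeting guide) (log2 change -2.65 ± 0.19, adjusted p = 0.00201) and PSG9 at 5.35 and 7.41 RPKM (no guide) and 0.623 and 0.382 RPKM (non-targeting guide) (log2 change -2.29 ± 0.23, adjusted p = 0.00605). With e3 guide 1 and guide 2 PSG3 stood at 4.15 and 3.32 RPKM. They form another cluster of close paralogs, on chromosome 19, and PSG3 alone of the 4 kept its call without any one library. Of 391 tested genes with a ZNF symbol, a class that includes most natural KRAB proteins, 2 rose and 5 fell (median -0.06), against 4.89% higher and 4.19% lower of all genes tested.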
